A study of Mus musculus with 3 samples.

Results

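The genes described here are 10 genes often used to mark tumour-associated macrophages: Arg1, Spp1, Trem2, Gpnmb, Mrc1, Mmp12, Mmp14, Fn1, Vegfa and Tgfb1. The rule that chose them used names only, and all 10 were matched by symbol among the 32285 features of the count tables. The study took liver tumours of MYC-ON mice (strain C57BL6, 18 weeks old), sorted live CD45+ cells by flow cytometry, and made 1 single-cell 3' RNA library for each of 3 groups: control, DU101 treated and DU102 treated. All 3 groups carried the MYC-ON background. What DU101 and DU102 are, their dose, what the controls received, the number of animals behind each library and the promoter that drives MYC are not stated in the sources used here. A single library stands for each group, so differences between groups have no replicate check and were not tested.

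Macrophages in a tumour come from blood monocytes that enter the tissue and mature there, and, in liver, also from Kupffer cells, the macrophages that live in the sinusoids from early life. As they mature in a tumour, such cells take up lipid and debris, secrete matrix proteins and proteases, and release factors that act on vessels and on lymphocytes. TREM2 is a lipid-sensing receptor on these cells, GPNMB a membrane glycoprotein of lysosome-rich phagocytes, SPP1 (osteopontin) and FN1 (fibronectin) are secreted ligands of integrins, MMP12 and MMP14 cut matrix proteins, MRC1 (CD206) is a mannose receptor that takes up glycoproteins, ARG1 breaks down arginine, VEGFA is the main growth factor of blood vessels, and TGFB1 is a cytokine that restrains immune cells and drives fibrosis.

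RefSeq promoters, 250 bases before to 50 after an annotated start, were found for 8 of the 10 genes, and none for Arg1 and Fn1. They were searched on both strands for 3 motifs: TGANTCA, the AP-1 element; GAGGAA, a core of the element bound by PU.1, the master factor of macrophages; and CACGTG, the E-box bound by MYC and by MITF-family factors. The 4 printed here belong to genes on which the comparisons between cell classes turn. Capitals mark every match to a motif on either strand, and the matches do not overlap. The build is GRCm38.p6 and all 4 genes lie on the plus strand, Spp1 at chr5:104434861-104435160, Trem2 at chr17:48346151-48346450, Gpnmb at chr6:49036268-49036567 and Mmp12 at chr9:7344147-7344446.
Spp1: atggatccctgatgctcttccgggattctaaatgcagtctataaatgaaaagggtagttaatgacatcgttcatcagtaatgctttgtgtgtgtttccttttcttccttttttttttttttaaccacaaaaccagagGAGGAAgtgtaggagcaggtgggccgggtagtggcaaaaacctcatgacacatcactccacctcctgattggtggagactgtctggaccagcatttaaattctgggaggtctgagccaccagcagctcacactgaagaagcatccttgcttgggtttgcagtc
Trem2: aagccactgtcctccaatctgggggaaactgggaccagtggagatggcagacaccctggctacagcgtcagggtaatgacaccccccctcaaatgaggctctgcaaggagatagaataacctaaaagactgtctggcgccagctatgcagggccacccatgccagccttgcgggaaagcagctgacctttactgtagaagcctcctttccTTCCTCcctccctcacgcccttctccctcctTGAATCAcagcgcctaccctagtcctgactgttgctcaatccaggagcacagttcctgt
Gpnmb: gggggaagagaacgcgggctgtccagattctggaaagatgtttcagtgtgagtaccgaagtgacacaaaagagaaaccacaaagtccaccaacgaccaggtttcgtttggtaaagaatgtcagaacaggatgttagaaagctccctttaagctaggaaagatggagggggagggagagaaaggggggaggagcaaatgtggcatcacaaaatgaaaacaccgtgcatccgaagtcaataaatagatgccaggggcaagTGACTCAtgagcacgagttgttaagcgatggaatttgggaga
Mmp12: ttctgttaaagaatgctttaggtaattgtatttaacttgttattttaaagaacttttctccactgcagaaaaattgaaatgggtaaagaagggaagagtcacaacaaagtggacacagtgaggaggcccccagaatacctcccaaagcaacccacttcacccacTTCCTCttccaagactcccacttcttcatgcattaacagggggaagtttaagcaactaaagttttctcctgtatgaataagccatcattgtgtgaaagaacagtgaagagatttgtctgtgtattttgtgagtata
Trem2 holds TGAATCA 9 bases before its start and a PU.1 core on the other strand 40 bases before it. Gpnmb holds TGACTCA 8 bases after its start and no PU.1 core. The first of 2 Spp1 entries and the first of 2 Mmp12 entries, those printed, each hold 1 PU.1 core and no AP-1 element. The second Mmp12 entry holds an AP-1 element 44 bases before its start and no PU.1 core. Mrc1 holds 3 PU.1 cores, Vegfa 1 in the first of its 2 entries, and Mmp14 and Tgfb1 hold no match. No promoter of the 8 genes holds the E-box. Among all 32851 promoters of that length, 7.81% hold the AP-1 element, 28.3% the PU.1 core and 7.15% the E-box. A match describes letters in the window only.

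The libraries held 12639, 15686 and 13650 barcodes in control, DU101 and DU102, with total counts of 91013198, 106604935 and 96817875 RNA molecules (UMIs). After filtering, 10154, 13799 and 11461 cells were kept, with medians of 6336, 4832 and 5091 UMIs. Cells were assigned to classes by marker genes, none of which is among the 10, and are called "-like". This gave 997, 1170 and 768 monocyte-like cells, 508, 585 and 491 patrolling monocyte-like cells, 805, 710 and 456 macrophage-like cells and 323, 159 and 111 Kupffer-like cells in control, DU101 and DU102. Clec4f, the defining receptor of Kupffer cells, stood at 340, 479 and 590 CPM (a gene's summed UMIs on a scale relative to all UMIs of the same cells) in Kupffer-like cells and at most at 1.05 CPM in macrophage-like cells. Between 59.8 and 69.2% of Kupffer-like cells carried exactly 3 of the 8 Kupffer genes, the least the gate allows. S100a8, a neutrophil gene, stood at 105, 458 and 638 CPM in macrophage-like cells and at 86.6, 496 and 1190.0 CPM in T-like cells. The part of such carried-over RNA in the results was not tested. Xist, the RNA of the inactive X chromosome, was found in 56.0, 0.138 and 0.0698% of cells in control, DU101 and DU102, and Y-linked RNA in 21.0, 46.8 and 52.5%. The control library thus mixes both sexes and the treated libraries carry male RNA, so that sex and treatment cannot be told apart except among control cells with Y-linked RNA. Pairs of libraries shared 23 to 42 barcodes among kept cells.

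In the first question, where the 10 genes were expressed, UMIs were summed over the cells of a class in a library and scaled to CPM, with an exact Poisson interval of 95%. These intervals cover counting error only, and they are too narrow where few cells hold most of the UMIs. A 3' library counts molecules without regard to length, and levels are compared here across cells for 1 gene at a time. A total of 14 classes had at least 50 cells in every library. T-like cells, which make little of most of these genes, served as background.

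**Figure D1:**
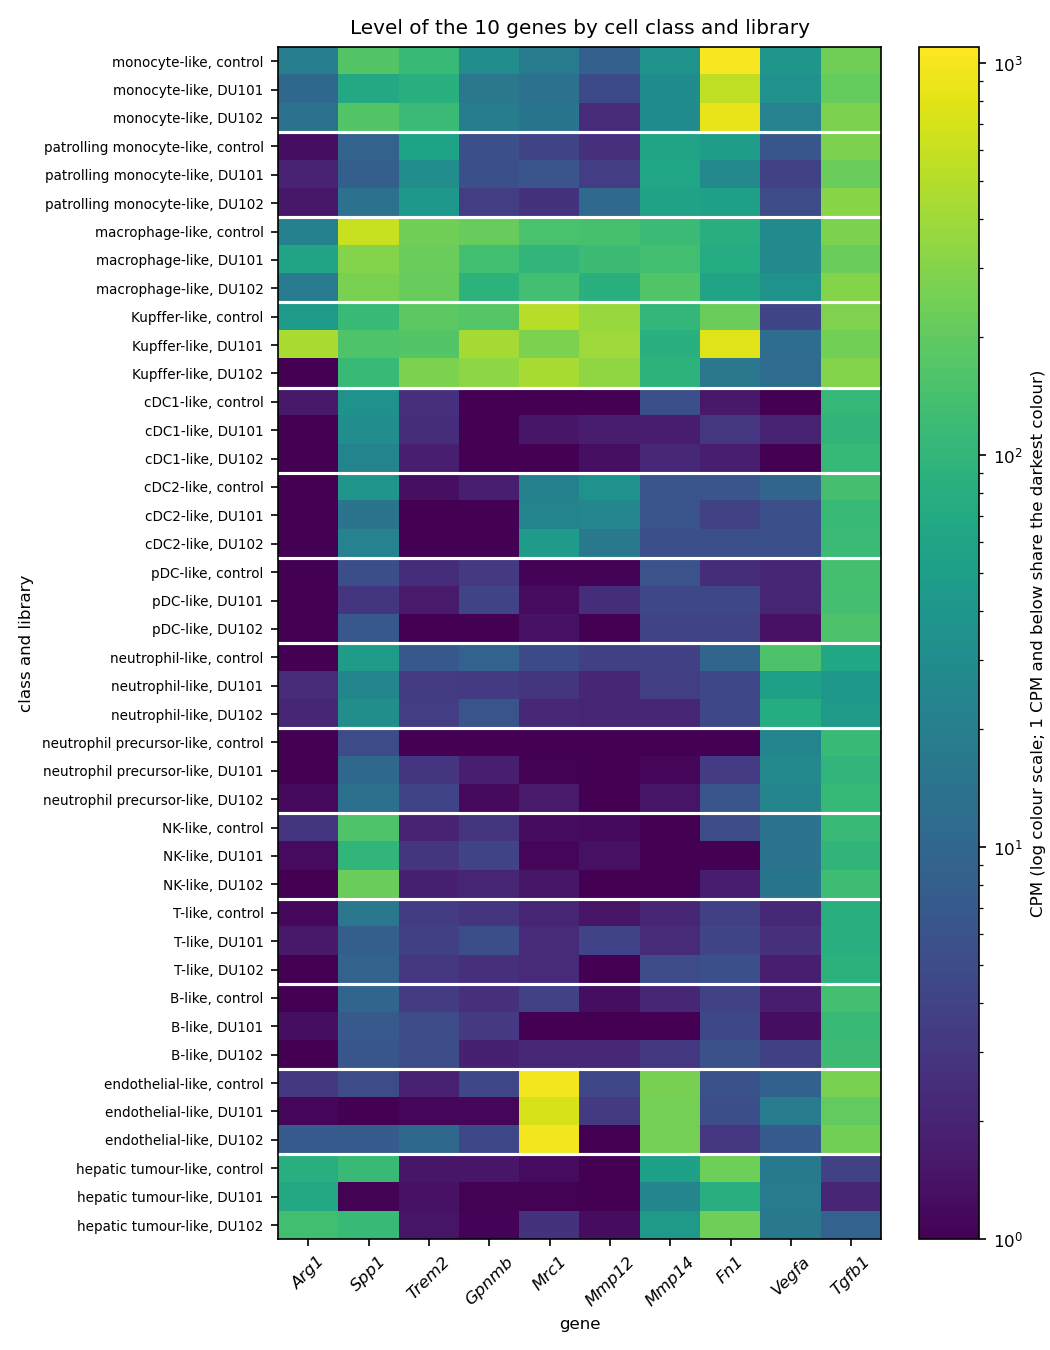
Level of each of the 10 genes (columns) in 14 cell classes, each as 3 rows for control, DU101 and DU102, as CPM of summed UMIs on a log colour scale that ends at 1 CPM. The phagocyte rows at the top are bright for most genes, while Mrc1 and Mmp14 are also bright in endothelial-like cells, Vegfa in neutrophil-like cells, Spp1 in NK-like cells and Arg1 and Fn1 in hepatic tumour-like cells.

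Trem2, the lipid-sensing receptor, was highest in the 4 phagocyte classes, and no other of the 14 classes held more than 10.5 CPM. Its level in macrophage-like cells was 240.5 CPM in control, 220.1 in DU101 and 218 in DU102, and in Kupffer-like cells it was 189, 169 and 273 CPM. Monocyte-like cells followed at 111, 84.9 and 119 CPM and patrolling monocyte-like cells at 57.8, 30.97 and 41.4 CPM. Macrophage-like and Kupffer-like intervals were apart in control and overlapped in DU101 (205 to 236 and 137 to 206 CPM) and DU102 (201 to 235 and 226 to 327 CPM). The ratio of the macrophage-like to the Kupffer-like level was 1.27 in control (interval 1.11 to 1.45), 1.30 in DU101 (1.05 to 1.62) and 0.797 in DU102 (0.654 to 0.979). These ratio intervals, for counting error only, exclude 1. The T-like level was 3.48, 3.77 and 3.06 CPM. When every cell was thinned to 2000 UMIs, Trem2 was found in 26.03, 21.2 and 23.8% of macrophage-like cells (39.5, 31.3 and 35.8% before thinning) and in 0.618, 0.852 and 0.455% of T-like cells.

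Gpnmb, the lysosomal glycoprotein, followed the same classes with a steeper drop to monocytes. It stood at 216, 132 and 91.4 CPM in macrophage-like cells, at 176, 424 and 336 CPM in Kupffer-like cells and at 31.2, 15.9 and 18.8 CPM in monocyte-like cells. Macrophage-like cells were highest in control, and Kupffer-like cells in DU101 and DU102, with intervals apart in all 3 libraries. In T-like cells Gpnmb stood at 2.95, 5.39 and 2.61 CPM.

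Mmp12, the macrophage elastase, was highest in Kupffer-like cells in all 3 libraries, at 378, 394 and 340 CPM. Macrophage-like cells held 144, 120.4 and 84.8 CPM and monocyte-like cells 8.54, 4.81 and 2.33 CPM. Few cells carried it: 82 of 323, 36 of 159 and 32 of 111 Kupffer-like cells had a UMI, and the 3 richest of them held 42.9, 55.8 and 54.4% of the class's Mmp12 UMIs. Outside the 4 phagocyte classes, cDC2-like cells, a dendritic class, held 35.3, 25.8 and 16.6 CPM.

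Spp1, the integrin ligand osteopontin, was highest of the 14 classes in macrophage-like cells in every library, at 612, 298 and 271 CPM. Among smaller classes, 18 stellate or fibroblast-like cells of DU101 held 1829 CPM. It was not limited to phagocytes. NK-like cells held 160.3, 99.98 and 221 CPM, and 29.4, 20.4 and 28.0% of them had a UMI (13.8, 8.59 and 13.6% after thinning), beside 1.61, 1.04 and 1.46% of thinned T-like cells. In monocyte-like cells the level was 168, 69.0 and 167 CPM, and in Kupffer-like cells 113, 160.3 and 113 CPM. A few cells held most of the message. In control macrophage-like cells 160 of 805 had a UMI, 1 cell held 719 of the 3793 UMIs, and the richest 1% held 71.6%. In DU101 the richest 1% held 55.8% of 1098 UMIs. In DU102 the 51 cells with a UMI held 777 UMIs, of which 407 were in 1 cell, and the 3 richest cells held 79.4%. The top rank of macrophage-like cells in DU102, above NK-like cells at 221 CPM, therefore rests on that 1 cell.

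Fn1, which encodes fibronectin, was highest of the 14 classes in monocyte-like cells in control and DU102, and in Kupffer-like cells in DU101, at 777 CPM from 12 cells. Monocyte-like cells held 1022, 570 and 883 CPM, and 50.4, 40.3 and 57.5% of them had a UMI after thinning. The level was 51.3, 27.0 and 54.4 CPM in patrolling monocyte-like cells and 80.2, 74.8 and 59.0 CPM in macrophage-like cells. Hepatic tumour-like cells, which carried keratins and Alb and came through the CD45 sort, held 233, 81.9 and 235 CPM. Among classes under 50 cells, stellate or fibroblast-like cells (24, 18 and 4 cells) held 1803, 1577 and 1309 CPM.

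Arg1, the arginase, was low in most phagocytes and held by few cells. In macrophage-like cells its level was 21.5, 59.4 and 18.5 CPM, from 20, 26 and 11 cells with a UMI. In monocyte-like cells it was 19.8, 10.3 and 14.1 CPM, and in DU102 97.8% of those UMIs lay in 3 cells. Hepatic tumour-like cells held 81.6, 68.2 and 131 CPM, spread over 39.1, 27.0 and 41.9% of the cells, and arginase is an enzyme of the urea cycle in hepatocytes. T-like cells held 1.16, 1.62 and 0.596 CPM.

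**Figure D2:**
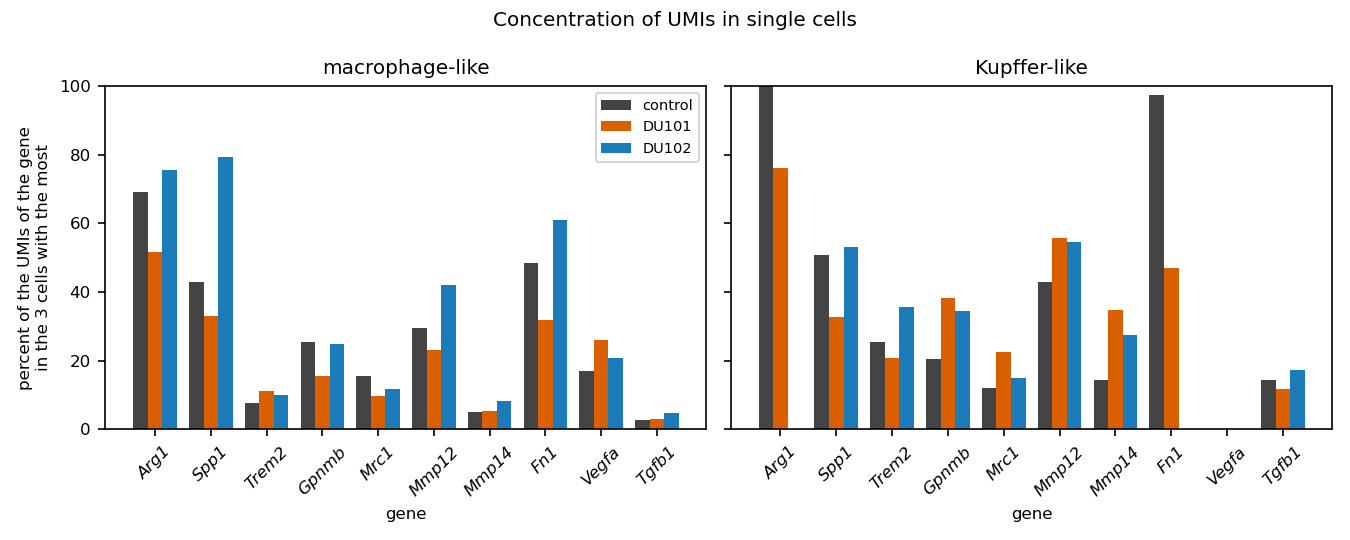
Percent of a gene's UMIs that lie in the 3 cells richest in it, in macrophage-like cells (left) and Kupffer-like cells (right), for control, DU101 and DU102, where the class held at least 30 UMIs of the gene. Arg1, Spp1 and Fn1 reach 61.0% or more in at least 1 library, as with 79.4% for Spp1 in DU102 macrophage-like cells, while Trem2, Mmp14 and Tgfb1 in macrophage-like cells hold at most 11.2%.

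Mrc1 and Mmp14 were shared with endothelium. Mrc1, the mannose receptor, stood at 963, 711 and 976 CPM in endothelial-like cells, which carried the sinusoidal markers Stab2 and Clec4g in their gate, at 518, 279 and 435 CPM in Kupffer-like cells and at 149, 100.3 and 135 CPM in macrophage-like cells. Mmp14, a protease anchored in the membrane, stood at 259, 257 and 255 CPM in endothelial-like cells, a class in which the 3 libraries did not differ beyond counting error. In macrophage-like cells it was 118, 133 and 162 CPM, in Kupffer-like cells 104, 85.4 and 92.6 CPM, and in patrolling monocyte-like cells 59.5, 61.5 and 56.0 CPM. The endothelial-like cells held little Ptprc, which encodes CD45, at 20.2, 53.3 and 101 CPM.

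Vegfa was highest in neutrophil-like cells, at 155, 54.2 and 77.3 CPM. In monocyte-like cells it was 38.5, 34.6 and 22.2 CPM, in macrophage-like cells 28.7, 27.1 and 35.2 CPM, and in Kupffer-like cells 4.29, 12.2 and 11.6 CPM from 5 to 7 UMIs. Tgfb1 was the most widely spread of the 10. It stood at 279, 225 and 297 CPM in macrophage-like, 282, 251.0 and 296 CPM in Kupffer-like, 274, 223 and 315 CPM in patrolling monocyte-like and 239, 213 and 277 CPM in monocyte-like cells. The first 3 of these classes had overlapping intervals within each library, and T-like cells held 83.5, 81.3 and 90.2 CPM.

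Across the 42 points formed by 14 classes in 3 libraries, the levels of Gpnmb and Mmp12 were the most alike pair among the 10 (Pearson's r = 0.918 of log2 of CPM plus 10). Trem2 and Gpnmb had r = 0.895, Mrc1 and Mmp14 0.825, Trem2 and Mmp12 0.768, and Arg1 and Fn1 0.76. The lowest value was -0.221, for Arg1 and Tgfb1. These points share libraries and cell classes, and r is given as a description. Among 6750 genes, those most like Trem2 included C3ar1 (0.963) and Ms4a7 (0.954), the latter a marker of the macrophage gate. Those most like Gpnmb were Pdlim4 (0.973), C1qc (0.956), also a gate marker, and Gm10134 (0.955), and those most like Mmp12 were Axl (0.948), Igf1 (0.943) and Atp6v0d2 (0.938). Mrc1 was most like Plod1 (0.96), Itga9 and Gas6 (both 0.949), and Mmp14 most like Selenop (0.958), Tmem87b (0.951) and Man2a1 (0.942). Arg1 was nearest to C4b (0.913), Acot1 (0.798) and Apoc1 (0.792), and Fn1 to Cfb (0.813), Saa3 (0.794) and F10 (0.781). The nearest to Spp1 were C3ar1 (0.695), Aoah (0.687) and Ccl7 (0.683), the weakest set of the 10. Vegfa was nearest to Ppp1r3b (0.8), Osm (0.792) and Dmxl2 (0.79), and Tgfb1 to Pon2 (0.913), Dok1 (0.885) and Ppp1r9b (0.867).

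Within single macrophage-like cells thinned to 2000 UMIs, the members met in different combinations. Trem2 and Gpnmb were found together in 37 of 657, 26 of 529 and 17 of 341 cells of control, DU101 and DU102, which is 1.87, 2.32 and 2.65 times the number that independent detection would give. Spp1 and Gpnmb were found together in 19, 25 and 9 cells, 2.11, 4.23 and 4.37 times that number. Trem2 and Tgfb1 were found together in 64, 34 and 29 cells, 0.949, 0.815 and 0.86 times that number. A thinned macrophage-like cell held on average 1.46, 1.34 and 1.39 of the 10 genes, and 1.52, 1.51 and 1.17% of cells held 5 or more.

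The second question was how the 10 genes differed between the libraries in macrophage-like cells. A gene differed by size where its ratio reached 1.5-fold, its interval lay on the same side of 1, and both libraries together held at least 30 UMIs. Against control, Spp1 and Gpnmb were lower in both treated libraries, Mmp12 was lower in DU102, and Arg1 was higher in DU101. Of the 10 genes, all measured, 1 was higher and 2 were lower in DU101, where 3.77% of 9930 genes were higher and 8.5% lower by the same rule. In DU102, 0 were higher and 3 lower, beside 3.31% and 2.86% of all genes. The median log2 ratio of the 10 was -0.195 in DU101, beside -0.095 over all genes, and -0.181 in DU102, beside 0.036. Comparisons of DU101 and DU102 with control share the control library.

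Spp1 at 612 CPM in control was 2.06-fold lower in DU101 at 298 CPM (interval 1.92 to 2.20) and 2.26-fold lower in DU102 at 271 CPM (2.09 to 2.44). The share of thinned cells with Spp1 was 11.9% in control, 11.2% in DU101 and 7.63% in DU102, and these exact Clopper-Pearson intervals overlapped (9.50 to 14.6, 8.60 to 14.2 and 5.04 to 10.97%). Without the 1% of cells richest in Spp1, the log2 ratio went from -1.04 to -0.42 in DU101, which is no longer a difference by size, and from -1.17 to -2.20 in DU102. With each cell given the same weight it was -0.35 in DU101 and -1.36 in DU102. With joint clusters in place of the gate it was -1.19 in DU101 and -0.34 in DU102, where it was no longer a difference by size, and with the gate applied to thinned cells it was -0.54 in DU102.

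Gpnmb at 216 CPM in control was 1.64-fold lower in DU101 at 132 CPM (interval 1.47 to 1.82) and 2.36-fold lower in DU102 at 91.4 CPM (2.07 to 2.71). The difference for DU102 was the one pair of gene and class against control in DU102 that passed the size rule under every alternative tried, with log2 ratios from -1.44 to -0.70. For DU101 the log2 ratio of -0.71 went to -0.30 without the richest 1% of cells, to -0.07 with cells weighted alike and to -0.50 against control cells with Y-linked RNA. Mmp12 was 1.70-fold lower in DU102 than in control, at 84.8 against 144 CPM (interval 1.48 to 1.97). Against the control cells whose sex-linked RNA was Y-linked alone, which held 80.5 CPM of Mmp12, the log2 ratio for DU102 was 0.08 in place of -0.77. With cells weighted alike it was -0.30.

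Arg1 in macrophage-like cells was 2.77-fold higher in DU101 than in control (interval 2.22 to 3.46) and 3.21-fold lower in DU102 than in DU101 (2.37 to 4.42). Of the 219 Arg1 UMIs in DU101, 57 lay in 5 cells with at least 2 of the cavity macrophage genes Gata6, Prg4 and Alox15, described below with the Kupffer-like cells, and without these the level was 44.2 CPM. A required lead of 1 or of 3 genes over other marker groups, in place of 2, gave log2 ratios of 0.51 and 0.45 for DU101 against control in place of 1.47. The lower level in DU102 than in DU101 passed the size rule under all alternatives. It was the only one of the 10 that differed by size between the treated libraries in this class, with 0 higher and 1 lower, where 12.3% of 9176 genes were higher and 4.35% lower.

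With all cells of the class kept, Trem2, Mrc1, Mmp14, Fn1, Vegfa and Tgfb1 did not differ by size in macrophage-like cells in any of the 3 comparisons. For Trem2 the levels of 240.5, 220.1 and 218 CPM had the overlapping intervals 229 to 253, 205 to 236 and 201 to 235 CPM. Mmp14 at 118, 133 and 162 CPM and Tgfb1 at 279, 225 and 297 CPM had intervals that did not all overlap, and their ratios stayed under 1.5. Mrc1 stood at 149 CPM in control (140 to 159) and 100.3 in DU101 (90.3 to 111), a ratio just under 1.5. Fn1 stood at 80.2 CPM in control (73.3 to 87.6). Of its 276 UMIs in DU101, 84 lay in the 5 cells with cavity genes, and without these it stood at 52.4 CPM (45.2 to 60.3).

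**Figure D3:**
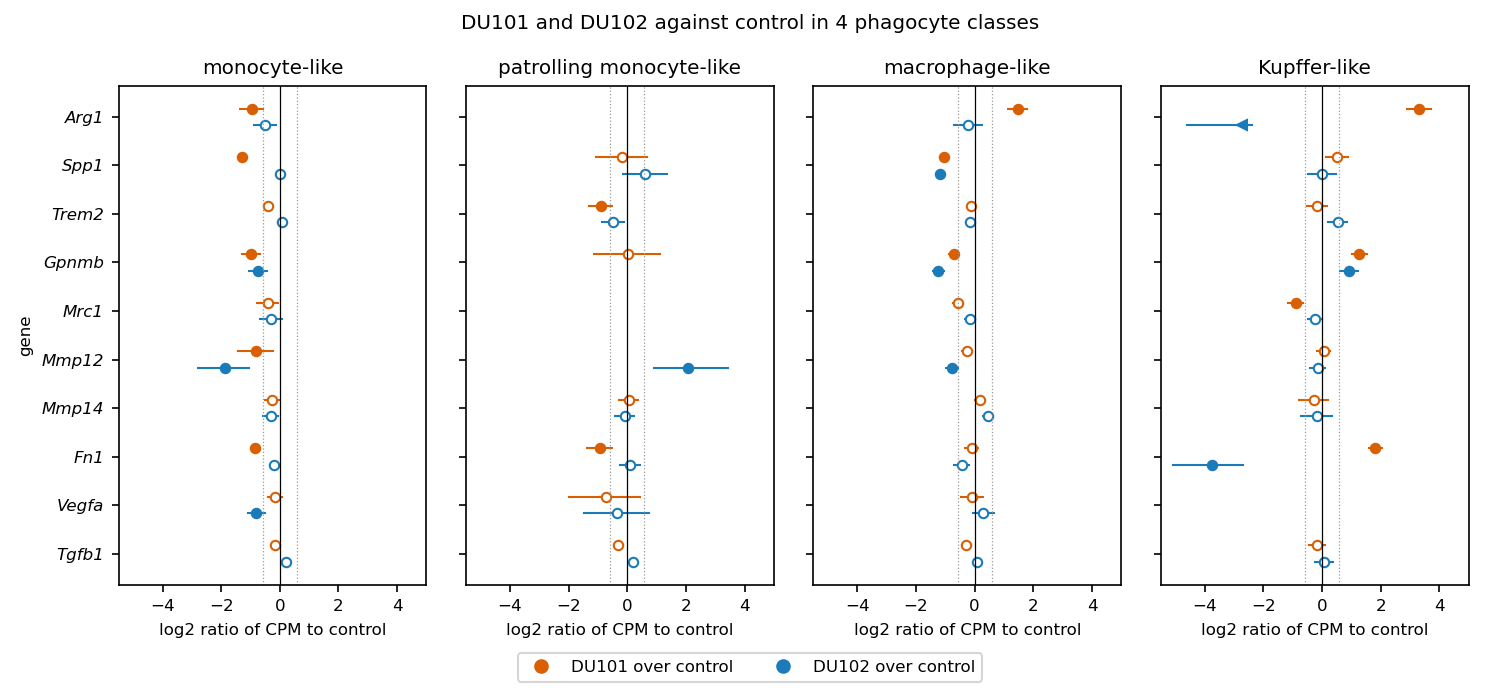
Log2 ratio of CPM of each of the 10 genes in DU101 (orange) and DU102 (blue) over control in 4 classes, with exact intervals that cover counting error only. Filled points passed the size rule, open points did not, dotted lines stand at 1.5-fold, pairs under 30 UMIs are left out, and the triangle marks Arg1 in DU102 Kupffer-like cells, where 0 UMIs were set to a floor of 3. Points for monocyte-like cells lie mostly left of 0 in DU101, and Arg1 and Fn1 in Kupffer-like cells lie far apart in the treated libraries.

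The macrophage-like cells were not of 1 kind, and their make-up differed between libraries. In a joint clustering of all cells, clusters 10, 14 and 23 held most of them. The genes described here were not kept out of those that could form the clusters. Their levels by cluster are therefore not independent of the clustering and are given as a description. Cluster 10, led by Ms4a7, Pf4, C3ar1 and C1qb, held 56.2, 72.5 and 46.3% of macrophage-like cells in control, DU101 and DU102, and Spp1 was among its 10 leading genes. Cluster 14 as a whole, led by Cd5l, Vcam1 and Il18bp with Fcna, Slc40a1 and Clec4f, carries more Kupffer than macrophage markers, and it held 16.0, 19.6 and 19.7%. Leading genes are those of all cells of a cluster. The gate allows at most 1 Kupffer gene in the macrophage-like cells among them. Cluster 23, led by Lipg, Fcgr4, Fcrl5 and Cxcl13, held 198 control cells (24.6%), 29 DU101 cells and 145 DU102 cells (31.8%).

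**Figure D4:**
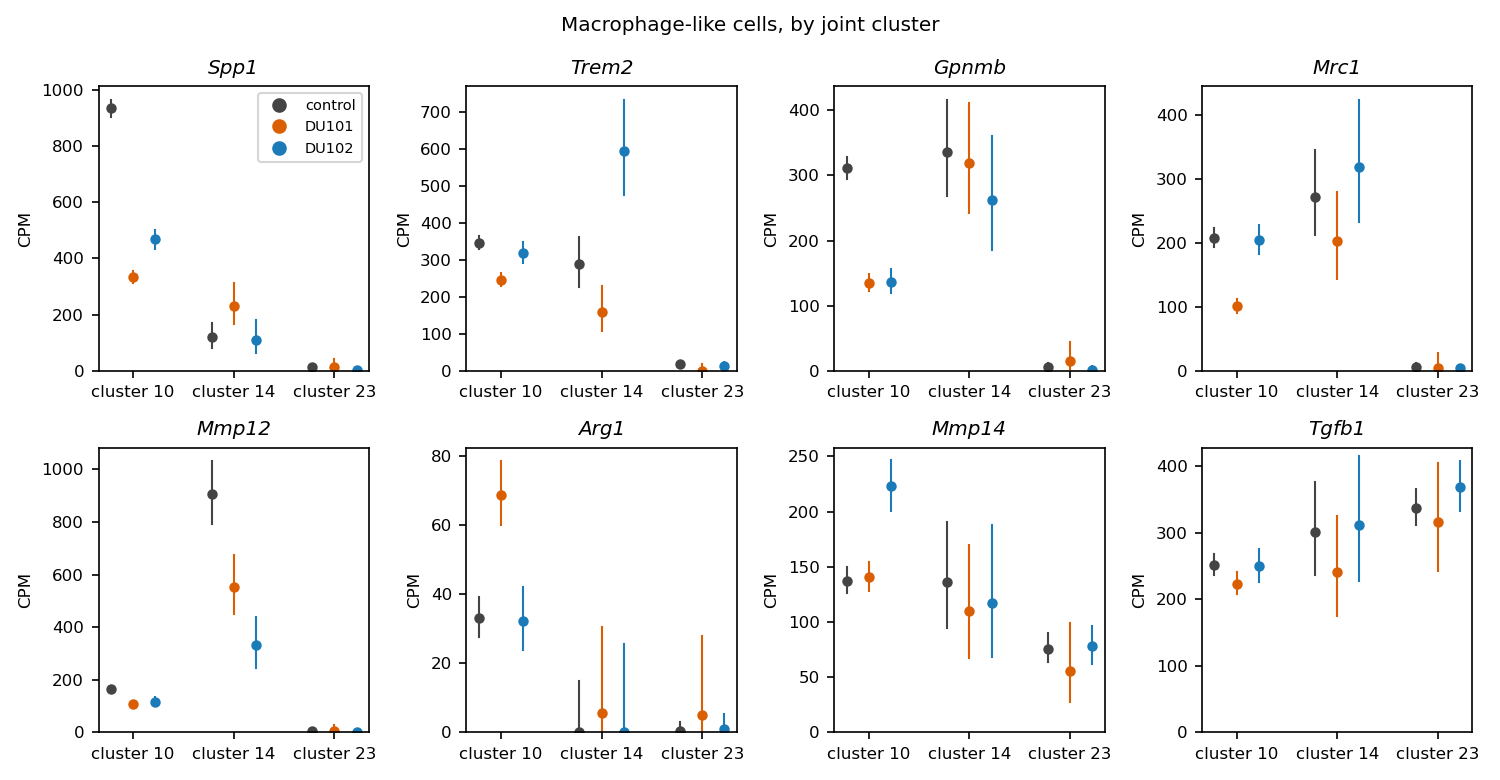
CPM of 8 of the genes in macrophage-like cells of joint clusters 10, 14 and 23, for control, DU101 and DU102, with exact Poisson intervals. Cluster 23 lies at 18.9 CPM or less for Spp1, Trem2, Gpnmb, Mrc1, Mmp12 and Arg1 in all 3 libraries and at 316 to 369 CPM for Tgfb1, and cluster 14 holds the highest Mmp12.

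Cluster 23 held little of Spp1, Trem2, Gpnmb, Mrc1, Mmp12, Fn1 and Arg1. Spp1 stood there at 14.4, 15.1 and 2.85 CPM and Trem2 at 18.9, 0 and 14.3 CPM, against Trem2 levels of 347, 247 and 319 CPM in cluster 10. Tgfb1, at 338, 316 and 369 CPM, and Vegfa, at 36.0, 25.1 and 58.0 CPM, were present in it. In cluster 14, Mmp12 stood at 905, 554 and 331 CPM, and Trem2 at 288, 159 and 594 CPM.

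Among the macrophage-like cells of cluster 10 alone, an alternative chosen after seeing the data, more of the genes were lower in DU101. The genes could help form this cluster, so the choice of cells is not independent of their levels. Spp1 stood at 935, 333 and 468 CPM, 2.81-fold lower in DU101 (interval 2.62 to 3.01) and 2.00-fold lower in DU102 (1.85 to 2.16). Gpnmb stood at 311, 135 and 137 CPM, 2.30-fold lower in DU101 (2.06 to 2.58) and 2.27-fold lower in DU102 (1.97 to 2.63). In cluster 14, on 16 to 84 UMIs, Spp1 was 1.92-fold higher in DU101 than in control (230.6 against 120.1 CPM, interval 1.17 to 3.18) and stood at 110.5 CPM in DU102, and Gpnmb, at 336, 318 and 262 CPM, did not differ by size. Trem2 in cluster 14 was 1.81-fold lower in DU101 than in control (1.16 to 2.89), on 29 UMIs in DU101, and 2.06-fold higher in DU102 (1.49 to 2.86). Mmp12 in cluster 14 was 1.63-fold lower in DU101 (1.29 to 2.08) and 2.73-fold lower in DU102 (1.99 to 3.81). The values that follow are again those of cluster 10. Mrc1 stood there at 208, 101 and 204 CPM and was 2.06-fold lower in DU101 than in control (1.81 to 2.35), with control and DU102 alike. Mmp14, at 137.5, 141 and 223 CPM, was 1.62-fold higher in DU102 than in control (1.42 to 1.85). Arg1, at 33.1, 68.7 and 32.1 CPM, was 2.08-fold higher in DU101 than in control (1.66 to 2.60), and Mmp12, at 163, 108 and 115 CPM, was 1.51-fold lower in DU101 (1.32 to 1.72). In counts for cluster 10, 1 of the 10 genes was higher and 4 were lower in DU101 than in control, beside 3.44% and 4.77% of genes. In DU102, 1 was higher and 2 lower, beside 4.15% and 2.15%. In DU102 against DU101, 2 were higher (Mrc1 and Mmp14) and 1 lower (Arg1), beside 7.54% and 3.4%.

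Among the other genes of these pathways in macrophage-like cells, from 7 lists, few differed by size. Over all genes in this class, 3.77% were higher and 8.5% lower in DU101 than in control, and 3.31% and 2.86% in DU102. Of 12 genes of TREM2 signalling and lipid handling, 0 were higher and 1 was lower in DU101 than in control: the lipid scavenger receptor Cd36, at 49.9 against 77.6 CPM. In DU102, 0 were higher and 2 lower, the fatty acid carrier Fabp5 (762 against 1220.0 CPM) and the galectin Lgals3 (1430.0 against 2252 CPM). Tyrobp, the adaptor that carries TREM2's signal, did not differ by size, at 2370.0 CPM in control and 2396 in DU101. Of 9 measured genes of alternative activation, 0 were higher in either treated library, and 2 were lower in DU101 and 4 in DU102. They were Chil3 (260.1, 83.2 and 135 CPM) and Pparg (83.3 in control and 45.5 in DU101), and in DU102 Chil3, Mgl2, Clec10a and Ccl24, each 1.93-fold to 2.03-fold lower. Chil3, Mgl2 and Clec10a are gate markers of monocyte-like and cDC2-like cells, so the gate can set their levels here. Of 8 measured genes of arginine metabolism, Ass1, which makes the precursor of arginine from citrulline, was 2.18-fold higher in DU101, and Sms, which makes spermine, was 1.75-fold lower. Of 9 measured genes of the VEGF and hypoxia list, Bnip3 (2.15-fold) and the glucose carrier Slc2a1 (1.62-fold) were higher in DU101, and Ndrg1 was 1.78-fold lower in DU102. Tgfb3, of the TGF-beta list, was higher in both, by 2.12-fold and 2.64-fold, from 4.36 CPM in control. Among the proteases, Mmp9 was higher and Mmp8 and Mmp19 were lower in DU101, the highest of these being Mmp19 at 17.8 CPM in control, and Mmp13 was 2.23-fold higher in DU102, at 24.8 CPM. Mmp9, on 31 UMIs over control and DU101, is a gate marker of neutrophil-like cells, so the gate can set its level here. None of the 7 measured integrins and other receptors of osteopontin and fibronectin differed by size in any comparison.

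In monocyte-like cells, the 10 genes leaned lower in DU101. All 10 were measured, and 0 were higher and 5 lower in DU101 than in control, beside 4.03% and 3.98% of 10283 genes. Their median log2 ratio was -0.618, beside 0.004 over all genes. Spp1 was 2.43-fold lower (69.0 against 168 CPM, interval 2.20 to 2.69), and was the one pair for DU101 that passed the size rule under every alternative tried. Fn1 was 1.79-fold lower (570 against 1022 CPM, interval 1.73 to 1.86), Gpnmb 1.97-fold lower (1.58 to 2.46), Arg1 1.93-fold lower (1.47 to 2.55) and Mmp12 1.78-fold lower (1.18 to 2.71) on 75 and 37 UMIs. With the gate on thinned cells, Arg1 and Mmp12 were no longer lower, with log2 ratios of 0.77 and 0.057, and with joint clusters Mmp12 was at 0.21. In DU102, 0 were higher and 3 lower, beside 3.3% and 2.78%: Gpnmb by 1.66-fold (1.34 to 2.08), Mmp12 by 3.67-fold (2.09 to 6.89) on 15 UMIs in DU102, and Vegfa by 1.74-fold (1.42 to 2.13). Between the treated libraries, Spp1 was 2.42-fold higher and Fn1 1.55-fold higher in DU102 than in DU101, and Mmp12 2.07-fold and Vegfa 1.56-fold lower, beside 3.93% higher and 2.92% lower of all genes. The Spp1 difference between DU102 and DU101 was 0.54 on the log2 scale without the richest 1% of cells, in place of 1.27, which is not a difference by size. With joint clusters Spp1, Fn1 and Vegfa did not pass the size rule, Fn1 did not with median-of-ratios scaling (0.58 in place of 0.63), Vegfa did not with cells weighted alike (-0.51 in place of -0.64), and Mmp12 did not without the richest 1% of cells or with up to 20% mitochondrial UMIs.

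The control monocytes themselves divided by sex-linked RNA. In the 235 control monocyte-like cells that held Y-linked RNA without Xist, Spp1 stood at 323 CPM, and in the 590 that held Xist without Y-linked RNA at 35.1 CPM, a 9.20-fold difference (interval 7.78 to 10.9). Fn1 stood at 1709 and 517 CPM in the same order, 3.30-fold apart, and Gpnmb at 43.3 and 17.4 CPM. In the other direction, Vegfa stood at 16.0 and 53.8 CPM and Mmp12 at 3.36 and 12.9 CPM. These within-library differences are as large as or larger than those between libraries for the same genes. Against the control cells with Y-linked RNA, Vegfa in DU102 monocyte-like cells was 0.47 higher on the log2 scale in place of 0.80 lower, and Mmp12 in DU101 was 0.52 higher in place of 0.83 lower. How many animals stand behind each part of the control library is not given, and the part of sex or of single animals in these differences was not tested.

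**Figure D5:**
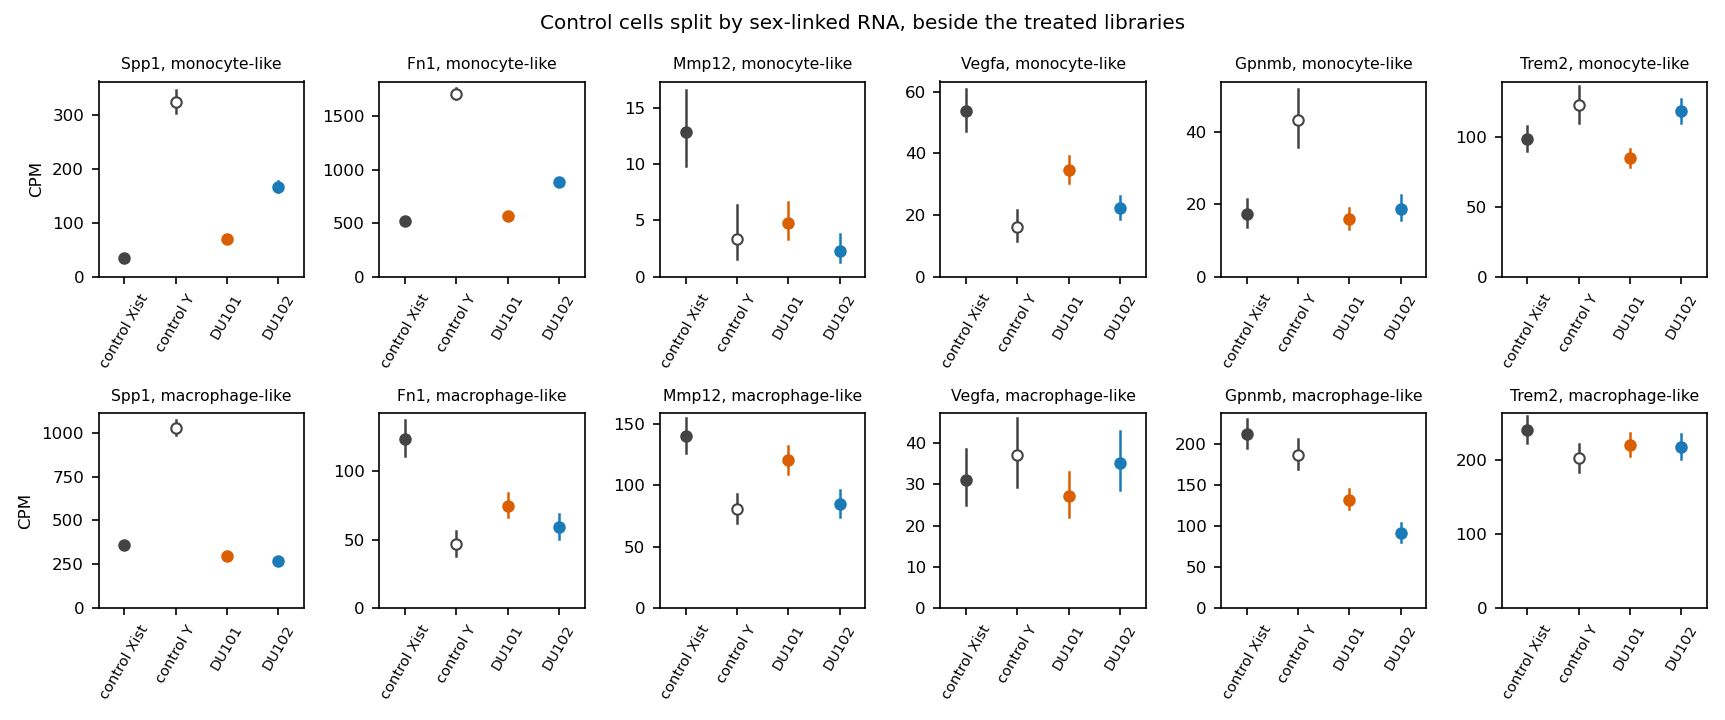
CPM of 6 of the genes in monocyte-like (top) and macrophage-like (bottom) cells, for control cells that held Xist alone (filled grey) or Y-linked RNA alone (open grey), DU101 and DU102, with exact Poisson intervals. Spp1 in monocyte-like cells is at 35.1 and 323 CPM in the control parts, with DU101 and DU102 at 69.0 and 167 CPM between them.

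In macrophage-like cells the same split of control gave Spp1 at 1028 CPM in 208 cells with Y-linked RNA and 359 CPM in 322 cells with Xist. There Fn1 went the other way from monocytes, at 46.6 and 124 CPM, and Mmp12 stood at 80.5 and 140.0 CPM. Gpnmb and Trem2 did not differ by size between the parts. Spp1 in DU101, at 298 CPM (280 to 316), and in DU102, at 271 CPM (252 to 291), was lower than in either part of control. Against the part with Xist (337 to 382 CPM), the gap was under 1.5-fold for each. The DU102 level rests on few cells, as given above. The part of sex in these levels was not tested.

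In patrolling monocyte-like cells, which circulate along vessel walls, 7 of the 10 genes reached 30 UMIs in each comparison with control. In DU101, 0 were higher and 2 lower, beside 3.5% and 5.16% of genes: Trem2 by 1.87-fold (30.97 against 57.8 CPM, interval 1.42 to 2.47) and Fn1 by 1.90-fold (27.0 against 51.3 CPM, 1.42 to 2.57). Control cells of this class with Y-linked RNA (69 cells) held 31.3 CPM of Trem2 and those with Xist (344 cells) 65.8 CPM. In DU102, 1 was higher and 0 lower, beside 5.01% and 2.34%. This was Mmp12, at 11.03 against 2.60 CPM, and 22 of its 28 UMIs in DU102 lay in 1 cell. With at most 5% mitochondrial UMIs allowed per cell its log2 ratio over control was -0.047 in place of 2.09. Against DU101, of 6 genes measured, Fn1 was 2.02-fold higher in DU102 (1.496 to 2.74), under all alternatives tried, and Mmp12 3.09-fold higher, making 2 higher and 0 lower beside 7.12% and 2.89%.

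Kupffer-like cells showed the largest ratios, on the fewest cells. Of the 10 genes, 9 reached 30 UMIs. In DU101 against control, 3 were higher (Arg1, Fn1 and Gpnmb) and 1 lower (Mrc1), beside 6.47% and 4.27% of 6276 genes. In DU102 against control, 1 was higher (Gpnmb) and 2 lower (Arg1 and Fn1), beside 4.67% and 3.46%. In DU102 against DU101, 2 were higher (Trem2 by 1.62-fold and Mrc1 by 1.56-fold) and 2 lower (Arg1 and Fn1), beside 5.33% and 7.38%. Without the cells with cavity macrophage genes described next, none of these 4 differences between the treated libraries passed the size rule, with log2 ratios of 0.54 for Trem2 and 0.35 for Mrc1. Arg1 and Fn1 were then under 30 UMIs and could not pass. Trem2 did not pass under 5 other alternatives and Mrc1 under 3 others.

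Arg1 and Fn1 in this class lay in few cells, which in DU101 nearly all carried genes of another macrophage. Arg1 stood at 45.7 CPM in control from 64 UMIs in 3 cells, at 450 CPM in DU101 from 258 UMIs in 12 cells, and at 0 in 111 DU102 cells, where a floor of 3 counts stands at 6.94 CPM. Against that floor, this makes DU101 9.83-fold higher than control, and DU102 at least 6.59-fold lower than control and at least 64.8-fold lower than DU101. Fn1 stood at 221 CPM from 10 cells, 777 CPM from 12 cells and 16.2 CPM from 4 cells, 3.52-fold higher in DU101 and 13.6-fold lower in DU102 than in control. Gata6, Prg4 and Alox15 are genes of the macrophages of the peritoneal cavity. In DU101, 11 Kupffer-like cells held at least 2 of these 3 genes and 0 Clec4f UMIs, and these 11 cells held 255 of the 258 Arg1 UMIs and 445 of the 446 Fn1 UMIs. In control, 1 such cell held 54 of the 64 Arg1 UMIs and 173 of the 309 Fn1 UMIs, and DU102 had 0 such cells among its Kupffer-like cells. Without these cells, an alternative chosen after seeing the data, Arg1 stood at 7.30 CPM in control and 6.41 in DU101, and Fn1 at 99.2 and 2.14 CPM. The direction for Fn1 in DU101 was then turned, and Arg1 no longer differed by size. With joint clusters in place of the gate, Fn1 was also turned, with log2 ratios over control of -1.37 in DU101 and 1.62 in DU102, and without the richest 1% of cells it was 0.13 in DU102.

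Gpnmb in Kupffer-like cells did not depend on those cells. It was 2.41-fold higher in DU101 than in control (424 against 176 CPM, interval 2.01 to 2.89) and 1.91-fold higher in DU102 (336 CPM, 1.54 to 2.35), and without the cells with cavity genes it stood at 180 CPM in control and 515 in DU101. The share of thinned cells with Gpnmb was 24.3, 23.8 and 31.03%. With a gate of 2 marker genes in place of 3, neither difference passed the size rule, and with joint clusters that for DU102 did not. Mrc1 was 1.86-fold lower in DU101 (279 against 518 CPM, interval 1.56 to 2.22) and was found in 32 of 80 thinned DU101 cells, beside 97 of 189 in control and 29 of 58 in DU102. The cells with cavity genes held 0 Mrc1 UMIs. Without them the gap was smaller, at 342 CPM in DU101 (291 to 399) and 529 in control (491 to 569), and passed the size rule. Spp1, Mmp12, Mmp14 and Tgfb1 did not differ by size in this class in any comparison, and Vegfa had too few UMIs.

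Of the 40 pairs of the 10 genes with these 4 classes, only those with at least 30 UMIs could pass the size rule. Among these, 4 were higher and 10 lower in DU101 than in control, and 2 higher and 8 lower in DU102 than in control. Over all genes, the shares within a class ran from 3.5 to 6.47% higher and 3.98 to 8.5% lower in DU101, and from 3.3 to 5.01% higher and 2.34 to 3.46% lower in DU102. Between DU102 and DU101, 6 were higher and 5 lower, which became 5 higher and 7 lower under median-of-ratios scaling, beside 3.93 to 12.3% higher and 2.89 to 7.38% lower over all genes before that scaling.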

How the data were processed

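The 10 genes and the gene lists were chosen with earlier results of these data known. The deposited values are raw UMI counts per gene and barcode. Per the file headers the authors used Cell Ranger 6.0.0, and the submitters' processing notes give mm10 with version 2.1.1. There was 1 matrix per library, and the authors' tables of numbered clusters were not used.

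Barcodes below 200 genes or above 10% mitochondrial UMIs were dropped. Doublets were called per library with Scrublet in scanpy 1.11.5 (265, 458 and 249 removed). A cell took the class of the best of 19 marker sets of 8 genes when it held at least 3 of them and led every other group by 2 genes. Kupffer-like cells needed at least 3 Kupffer genes. Cells without a class made up 12.2, 19.0 and 19.3% of control, DU101 and DU102. A further 374, 308 and 218 phagocytes could not be placed in 1 of the 4 phagocyte classes and are left out of them. Without cells with cavity genes, they held Gpnmb at 173, 178 and 159 CPM, Spp1 at 411, 110 and 325 CPM and Mmp12 at 144, 179 and 65.8 CPM. In DU101 they held 272 Arg1 UMIs, 96 of them in cells with cavity genes. UMIs were summed by class and library, so that fewer molecules per cell and fewer cells with the gene cannot be told apart from a sum alone. Ratios have exact conditional 95% intervals for a pair of Poisson counts, and a count of 0 was set to a floor of 3 counts per library. Shares of cells were computed on cells thinned to 2000 UMIs. Shallower cells were left out, which removed 148, 181 and 115 macrophage-like and 134, 79 and 53 Kupffer-like cells. Joint clusters came from Leiden at resolution 1.0 on 2000 variable genes and 30 principal components. The calculation was tested on simulated Poisson counts only. That test does not cover genes whose UMIs lie in few cells, as for Spp1 and Arg1 here. All 10 genes were named in every class described, and of each list at most the 4 largest differences by size in macrophage-like cells. One result on likeness to Trem2 is not reported here. A total of 17 alternatives was planned and 2 were added after seeing the data. Python 3.11.15, numpy 2.4.6 and scipy 1.17.1 were used.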

Additional observations from a re-analysis of the deposited data

Results flagged for a closer look

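Some genes differed by size in opposite directions in different classes or in the 2 treated libraries against the same control, and these oppositions were not tested. The values here are log2 ratios over control. Arg1 in Kupffer-like cells was 3.30 in DU101 and -2.72 in DU102, and in DU101 it was -0.95 in monocyte-like and 1.47 in macrophage-like cells. Fn1 in Kupffer-like cells was 1.82 in DU101 and -3.77 in DU102, and in DU101 it was -0.84 in monocyte-like and -0.93 in patrolling monocyte-like cells. Gpnmb was -0.98 in monocyte-like, -0.71 in macrophage-like and 1.27 in Kupffer-like cells in DU101, and -0.73, -1.24 and 0.93 in the same order in DU102. Mmp12 in DU102 was -1.88 in monocyte-like, 2.09 in patrolling monocyte-like and -0.77 in macrophage-like cells. Without the cells with cavity macrophage genes, Kupffer-like cells gave -0.19 for Arg1 and -5.54 for Fn1 in DU101, and -0.072 and -2.61 in DU102. These Arg1 values rest on 10, 3 and 0 UMIs in control, DU101 and DU102, too few for the size rule, with the 0 set to the floor. The Mmp12 value of 2.09 rests on 1 cell that held 22 of the 28 UMIs in DU102.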

How the results depend on the processing

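No paired analysis was possible because each group has 1 library. At 2-fold in place of 1.5-fold, 6, 6 and 7 pairs of gene and class passed in DU101 over control, DU102 over control and DU102 over DU101, in place of 14, 10 and 11, and the other alternatives that gave a count left it within 1.5 times. Of the pairs, 1, 1 and 2 passed under every alternative that gave a value. Of single pairs under single alternatives, 524 kept their direction and stayed inside the main interval, 106 moved further and 17 changed direction, and 7 had both libraries at or under the floor and got no value. Those that changed direction are given as log2 ratios. With the gate on thinned cells they were Arg1 (0.77) and Mmp12 (0.057) in monocyte-like cells for DU101 over control, and Arg1 in Kupffer-like cells for DU102 over control (0.078). With joint clusters they were Mmp12 in monocyte-like cells (0.21, DU101 over control) and Fn1 in Kupffer-like cells (-1.37 for DU101 over control, 1.62 for DU102 over control and 2.99 for DU102 over DU101). Against control cells with Y-linked RNA they were Arg1 (0.028) and Mmp12 (0.52) in monocyte-like cells for DU101, and Vegfa in monocyte-like (0.47) and Mmp12 in macrophage-like cells (0.075) for DU102. At most 5% mitochondrial UMIs turned Mmp12 in patrolling monocyte-like cells (-0.047 over control and -0.25 over DU101, in DU102). Without the richest 1% of cells Fn1 in Kupffer-like cells was 0.13 for DU102 over control. Without cells with cavity macrophage genes, Kupffer-like cells gave -0.19 for Arg1 and -5.54 for Fn1 in DU101 over control, and 2.92 for Fn1 in DU102 over DU101. The Arg1 value rests on 3 UMIs in DU101 and 10 in control, and the 2.92 on 7 in DU102 and 1 in DU101. Both pairs are too few for the size rule. The cause of the other shifts was not tested. Median-of-ratios scaling moved the median of all genes by over 0.1 on the log2 scale in DU102 over DU101, by -0.107 in patrolling monocyte-like and -0.126 in macrophage-like cells. Depth limits mainly the Kupffer-like cells, with 573759 UMIs in DU101 and 432007 in DU102.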
